A study of Mus musculus with 8 samples.

Results

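The genes described here are subunits of the transcription factor NF-kB and the feedback inhibitors that it switches on. They were chosen by name: Nfkb1, Nfkb2, Rel, Rela and Relb for the subunits, Bcl3 for a nuclear cofactor, and Nfkbia, Nfkbie, Tnfaip3 and Ier3 for feedback inhibitors and target genes. Of these 10 genes, 9 had probe sets that the platform annotation gives a single symbol, 16 probe sets in all, out of 34945 such probe sets and 18193 genes. Nfkb1 was not analysed here.

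NF-kB is a dimer of subunits that rests in the cytoplasm, held there by inhibitors of the IkB family. Signals from antigen, cytokine and tumour necrosis factor receptors activate the IKK kinase complex, which marks the IkB protein for destruction and frees the dimer to enter the nucleus. Among the first genes that NF-kB then transcribes are those of its own inhibitors, which ends the response. In thymocytes and T cells the pathway carries signals of the pre-T cell receptor and the T cell receptor for survival and activation.

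The arrays profiled T29, a line from a mouse thymic lymphoma that the series text describes as lacking Ikaros, the zinc finger transcription factor encoded by Ikzf1. In the first group, cells transduced with MigR1-Ik1ER, a retroviral vector carrying an inducible Ikaros protein, received 100 nM 4-hydroxytamoxifen (4OHT) for 24 h. In the second group the same cells received ethanol. The remaining groups were cells transduced with the vector MigR1 alone, given 4OHT or ethanol, so that all cells carried a retroviral vector and lacked functional Ikaros of their own according to that text. Total RNA was hybridised to 8 Affymetrix arrays, 2 per group, a number that limits the precision. Whether the replicates came from separate cultures and whether each line was 1 clone are not stated in the labels. The p-values measure only the spread between these arrays, which may be technical. All values below are log2 expression values made by the authors with RMA, and a difference of 1 is a 2-fold change.

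One probe set of Ikzf1 read 11.27 and 10.45 in Ik1ER cells with 4OHT and 11.17 and 10.60 with ethanol, against 8.16 and 8.51 in MigR1 cells with 4OHT and 8.12 and 8.14 with ethanol. It was 6.22-fold higher in the 4 Ik1ER arrays (p = 0.0286 in a two-sided exact permutation test, which cannot go lower with 4 arrays a side). A second Ikzf1 probe set, brighter on average, read 9.97 to 10.44 over all 8 arrays, those of MigR1 cells included. It differed by -0.07 between Ik1ER and MigR1 arrays (exact permutation test, p = 0.514). Array medians ranged from 5.36 to 5.43, and the 27 Bacillus control probe sets, a gauge of background, had means of at most 5.27. Both Ik1ER replicate 2 arrays stood apart in the transferrin receptor control. Its 3' probe set exceeded the 5' one by 1.91 with 4OHT and 1.66 with ethanol, against 1.15 to 1.39 on the other 6 arrays. Ik1ER 4OHT replicate 2 was also the dimmest array in the hybridization controls, at 8.86. The next dimmest there, Ik1ER ethanol replicate 2, stood at 9.41. Differences between replicates spread most in Ik1ER cells with 4OHT (SD 0.250). The next largest SD was 0.188, in Ik1ER cells with ethanol. T cell and thymocyte markers averaged 11.45 to 11.62 in Ik1ER cells with 4OHT and 11.32 to 11.42 in all other groups. The marker average holds changes in both directions, given with the other markers after the NF-kB genes. All 13 measured lay above the highest control mean, that of the Bacillus probe sets. Of the markers of other cells, 2 of 6 for B cells, 3 of 8 for myeloid cells, 2 of 6 for stromal cells, 2 of 3 for erythroid cells and 0 of 3 for natural killer cells did so.

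The regulatory sequence next to the start sites of the 4 genes that changed is shown first, since all 4 are known NF-kB targets. Each line gives the 250 bases before the start site from RefSeq (GRCm38.p6), and capitals mark matches to the NF-kB 10-base consensus on either strand.
Nfkbia, chr12:55492648-55492897, minus strand: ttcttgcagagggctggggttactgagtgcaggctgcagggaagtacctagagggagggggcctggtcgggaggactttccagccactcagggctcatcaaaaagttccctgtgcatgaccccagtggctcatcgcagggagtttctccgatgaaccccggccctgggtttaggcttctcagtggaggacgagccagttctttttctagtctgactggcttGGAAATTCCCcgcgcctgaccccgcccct
Nfkbie, chr17:45555450-45555699, plus strand: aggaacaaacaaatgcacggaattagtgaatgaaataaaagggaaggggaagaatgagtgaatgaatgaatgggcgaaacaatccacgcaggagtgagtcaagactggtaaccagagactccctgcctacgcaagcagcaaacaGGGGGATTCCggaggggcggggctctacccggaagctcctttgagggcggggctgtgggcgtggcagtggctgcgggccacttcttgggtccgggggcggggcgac
Tnfaip3, chr10:19015411-19015660, minus strand: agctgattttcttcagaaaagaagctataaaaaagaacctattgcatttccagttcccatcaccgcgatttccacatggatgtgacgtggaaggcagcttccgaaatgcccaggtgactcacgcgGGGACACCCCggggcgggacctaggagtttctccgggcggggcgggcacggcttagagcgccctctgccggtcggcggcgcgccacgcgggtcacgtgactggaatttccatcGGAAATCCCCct
Ier3, chr17:35821463-35821712, plus strand: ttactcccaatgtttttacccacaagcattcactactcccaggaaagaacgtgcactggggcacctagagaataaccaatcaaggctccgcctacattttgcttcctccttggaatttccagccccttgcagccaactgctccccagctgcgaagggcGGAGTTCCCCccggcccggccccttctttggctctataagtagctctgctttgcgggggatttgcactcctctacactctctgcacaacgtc

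The consensus had 1 match in the windows of Nfkbia, Nfkbie and Ier3 and 2 in the Tnfaip3 window shown, while 7.25% of all 32851 promoter windows of this length held at least 1. Counted from the start site, the match lay at bases -29 to -20 in Nfkbia, -106 to -97 in Nfkbie and -92 to -83 in Ier3, and those of Tnfaip3 at -125 to -116 and -12 to -3. A second Tnfaip3 window, at another start site, held no match to the consensus and 1 GGGAA. Of the other members, Rel and each of the 3 windows of Nfkb2 also held matches, Rela and Bcl3 held none, and Relb had no entry. The letters GGGAA, the core of Ikaros binding sites, were searched on both strands and occurred 3 times in the Nfkbia window, 2 times in Nfkbie, and once each in the Tnfaip3 and Ier3 windows shown. They occurred in 56.2% of all windows. The single GGGAA of Ier3 and 1 of the 3 of Nfkbia lay inside the NF-kB match, so that these letters belong to both motifs. The longer form TGGGAA occurred once in the Tnfaip3 window shown, in no other window of a member, and in 21.6% of all windows. These matches describe the letters and are not measured binding sites.

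The first comparison addresses the response to induced Ikaros activity, in Ik1ER cells with 4OHT against the same cells with ethanol. The 2 IkB genes among the members, Nfkbia and Nfkbie, rose, whereas the brakes Tnfaip3 and Ier3 fell. Neither a subunit nor the cofactor Bcl3 passed the test by the probe set that stood for it. By the choice of probe set used for all other genes, which passes over the _x_at kind, Nfkb2 did (-0.45, limma, adjusted p = 0.0314). With limma, 4 of 9 members were called at an adjusted p under 0.05, 2 higher and 2 lower. Of all 18193 genes 5.34% were called, 2.84% higher and 2.51% lower. Among the 10916 genes brighter than the median of all probe sets, fitted alone, 1178 were called, and again 4 members. The members were chosen with earlier results of these data known. Comparisons of their counts and medians with all genes are therefore descriptive and do not test the set. The median change over the 9 members was 0.06 and their median absolute change 0.31, against -0.0039 and 0.10 over all genes. In this bulk RNA, fewer cells expressing a gene and less RNA per cell cannot be told apart.

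**Figure D1:**
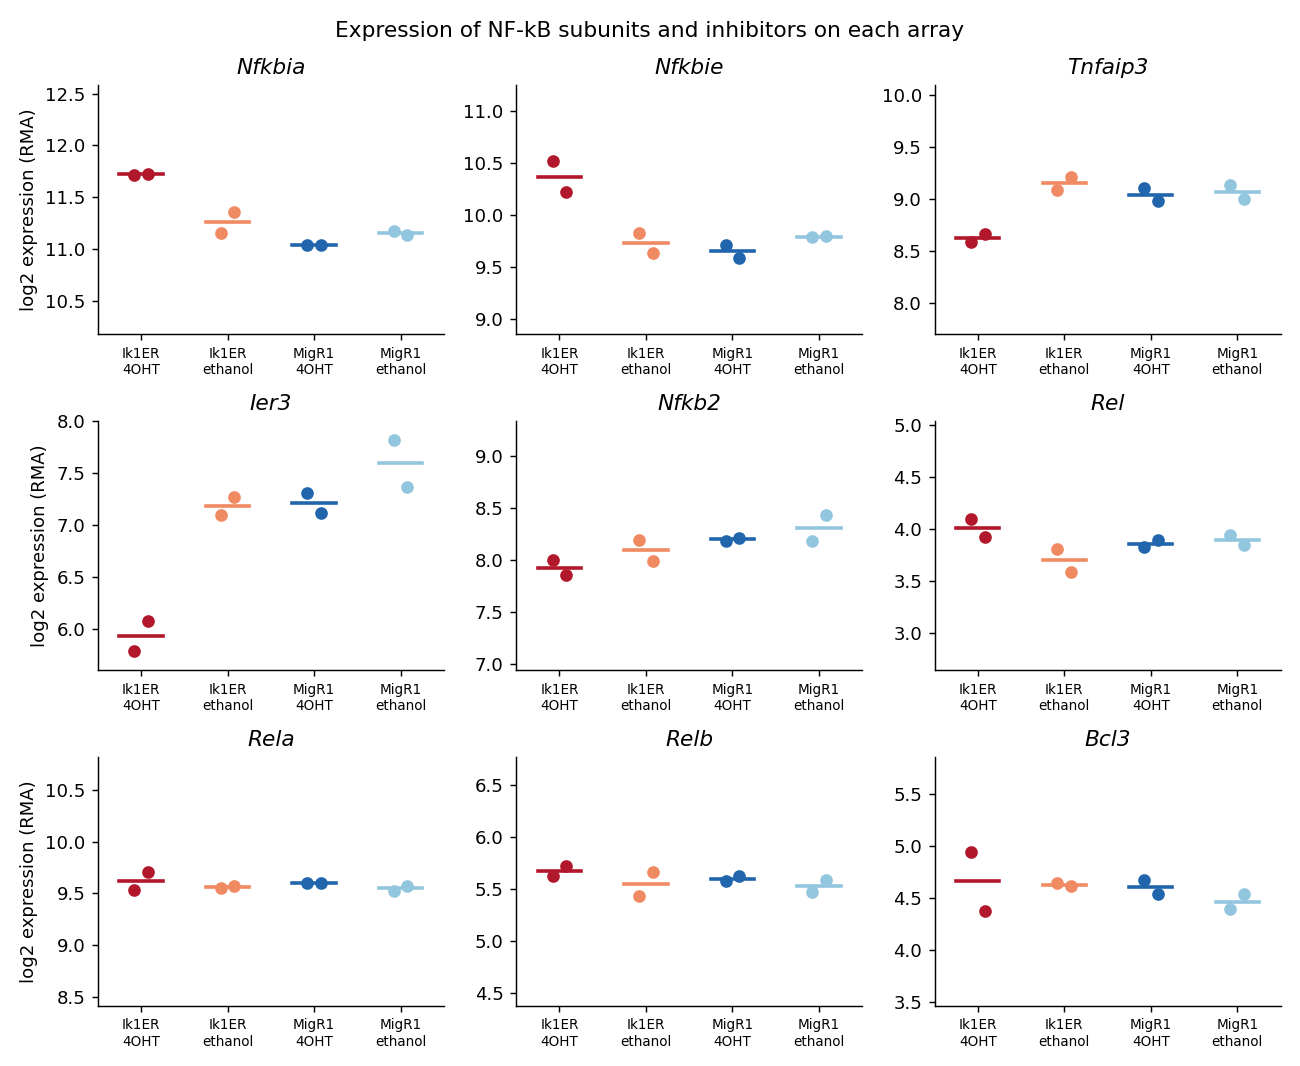
Log2 expression (RMA) of the 9 measured genes on each of the 8 arrays, 1 panel per gene and each spanning 2.4 log2 units, with points for arrays and a line at the mean of each group's 2 arrays. Nfkbia and Nfkbie were highest and Tnfaip3 and Ier3 lowest on both arrays of Ik1ER cells with 4OHT, whereas Rela lay between 9.53 and 9.71 on all 8 arrays.

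Nfkbia encodes IkB alpha, the inhibitor that NF-kB induces most rapidly. It read 11.71 and 11.73 in Ik1ER cells with 4OHT and 11.16 and 11.36 with ethanol, against 11.04 and 11.05 in MigR1 cells with 4OHT and 11.18 and 11.14 with ethanol. Both arrays of Ik1ER cells with 4OHT lay above all 6 others. It rose by 0.46 (SE 0.08, 1.38-fold, limma, adjusted p = 0.0184) in Ik1ER cells.
The gene had 5 probe sets, which were also tested among all 45037 probe sets, where 2.5% were called. Of the members' 16 probe sets 8 were called there, 6 higher and 2 lower. The 3 Nfkbia probe sets next in brightness rose by 0.67 (SE 0.10, adjusted p = 0.0150), by 0.78 (SE 0.16, adjusted p = 0.0472) and by 0.59 (SE 0.11, adjusted p = 0.0428). The dimmest of the 5, with a mean of 7.07, differed by 0.14 (SE 0.14, 95% interval -0.18 to 0.45, adjusted p = 0.768). On that one, the arrays of Ik1ER cells with 4OHT (7.15 and 7.42) overlapped those with ethanol (6.97 and 7.33). Nfkbia was not called when Ik1ER ethanol replicate 1 was left out (adjusted p = 0.0998), nor without Ik1ER 4OHT replicate 1 (0.0610) or Ik1ER 4OHT replicate 2 (0.0620). Without both Ik1ER replicate 2 arrays the change was 0.56 (adjusted p = 0.0493).

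Nfkbie encodes IkB epsilon, a slower feedback inhibitor known to restrain dimers that contain RelA and c-Rel. It read 10.52 and 10.22 in Ik1ER cells with 4OHT and 9.83 and 9.63 with ethanol, against 9.71 and 9.59 in MigR1 cells with 4OHT and 9.79 and 9.80 with ethanol. The arrays of Ik1ER cells with 4OHT again lay above all 6 others. Nfkbie rose by 0.64 (SE 0.12, 1.56-fold, limma, adjusted p = 0.0181) in Ik1ER cells, and 2.75% of all genes had a larger absolute change.
Its second probe set read 8.96 and 8.81 in Ik1ER cells with 4OHT and 8.25 and 8.07 with ethanol, and it rose by 0.73 (SE 0.12, adjusted p = 0.0259 over all probe sets). Both probe sets of Nfkbie thus passed the stricter adjustment. The gene was not called when Ik1ER ethanol replicate 2 was left out (adjusted p = 0.116), nor without Ik1ER 4OHT replicate 1 (0.0637). Without both Ik1ER replicate 2 arrays the change was 0.69 (adjusted p = 0.0422).

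Tnfaip3 encodes a ubiquitin-editing enzyme that shuts off signalling from receptors to the IKK complex. It read 8.58 and 8.66 in Ik1ER cells with 4OHT and 9.09 and 9.22 with ethanol, against 9.10 and 8.98 in MigR1 cells with 4OHT and 9.14 and 9.00 with ethanol. Both arrays of Ik1ER cells with 4OHT lay below all 6 others. It fell by 0.53 on the log2 scale (SE 0.09, 1.44-fold lower, limma, adjusted p = 0.0133).
The dimmer of its 2 probe sets read 6.99 and 6.88 in Ik1ER cells with 4OHT and 7.20 and 6.98 with ethanol. These arrays overlapped, and the difference was -0.16 (SE 0.10, 95% interval -0.38 to 0.06, adjusted p = 0.568 over all probe sets). The brighter probe set, which stood for Tnfaip3, was no longer called when Ik1ER ethanol replicate 2 was left out (adjusted p = 0.0918), nor without Ik1ER 4OHT replicate 1 (0.0597) or both Ik1ER replicate 2 arrays (-0.50, adjusted p = 0.117).

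Ier3, an early response gene whose product affects survival and is itself an NF-kB target, had the largest change of the 9 members. It read 5.79 and 6.08 in Ik1ER cells with 4OHT and 7.10 and 7.27 with ethanol, against 7.31 and 7.12 in MigR1 cells with 4OHT and 7.82 and 7.37 with ethanol. The arrays of Ik1ER cells with 4OHT lay below all 6 others, by at least 1 log2 unit. It fell by 1.25 (SE 0.16, 2.37-fold lower, limma, adjusted p = 0.00499), and 0.533% of all genes had a larger absolute change. The gene had 1 probe set. Its call held when each array was left out, with an adjusted p of at most 0.0391, but not without both Ik1ER replicate 2 arrays (-1.30, adjusted p = 0.0578).

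**Figure D2:**
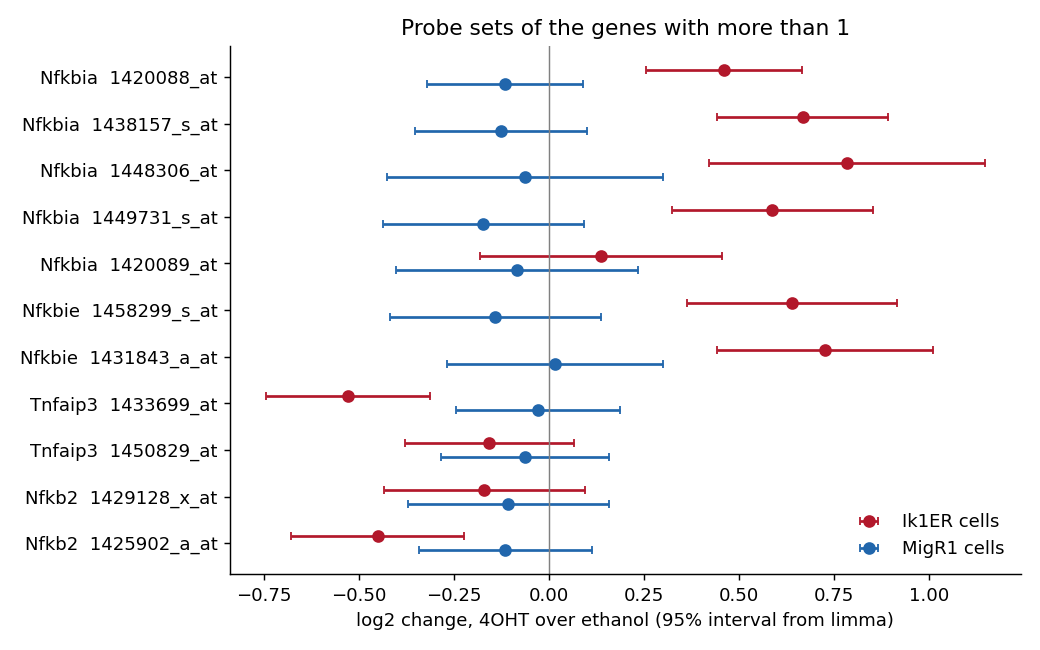
Log2 change with 4OHT over ethanol for the 11 probe sets of the 4 genes with more than 1, in Ik1ER cells (red) and MigR1 cells (blue), with 95% intervals from limma fitted to all probe sets. In Ik1ER cells 4 of 5 Nfkbia probe sets and both Nfkbie probe sets lay above 0 with their intervals, while 1 probe set each of Tnfaip3 and Nfkb2 lay below.

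Among the subunits, Nfkb2 encodes the precursor that is processed for the non-canonical branch of the pathway, and its result turned on the probe set. The brighter probe set, which stood for the gene, read 7.99 and 7.85 in Ik1ER cells with 4OHT and 8.19 and 7.99 with ethanol, and differed by -0.17 (SE 0.11, limma, adjusted p = 0.507). That probe set is of the _x_at kind, whose probes may also bind other transcripts. The dimmer one read 7.11 and 7.35 in Ik1ER cells with 4OHT and 7.65 and 7.71 with ethanol, against 7.73 and 7.74 in MigR1 cells with 4OHT and 7.80 and 7.90 with ethanol. Its arrays in Ik1ER cells with 4OHT lay below all 6 others. It differed by -0.45 (SE 0.10), with an adjusted p of 0.0657 over all probe sets and 0.0314 where it stood for Nfkb2 in limma's test with 1 probe set per gene.

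Rela encodes RelA, the main activating subunit, and read 9.53 and 9.71 in Ik1ER cells with 4OHT and 9.55 and 9.57 with ethanol. The groups overlapped, and the difference was 0.06 with a 95% interval of -0.13 to 0.24 (limma, adjusted p = 0.796). Relb, whose product pairs with the processed Nfkb2 protein, read 5.63 and 5.72 in Ik1ER cells with 4OHT and 5.43 and 5.66 with ethanol. It differed by 0.12 with a 95% interval of -0.10 to 0.34.
Rel and Bcl3 had means of 3.86 and 4.59, below the highest control mean, so that their changes may be compressed. Rel, which encodes c-Rel, read 4.09 and 3.92 in Ik1ER cells with 4OHT and 3.81 and 3.59 with ethanol. The arrays did not overlap, as was so for 42.7% of all genes, but the difference of 0.31 was not called (SE 0.10, limma, adjusted p = 0.140). Bcl3, an IkB-like cofactor of nuclear dimers, read 4.94 and 4.38 with 4OHT and 4.64 and 4.61 with ethanol, and differed by 0.03 with a 95% interval of -0.35 to 0.41.

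The second comparison shows what 4OHT does in cells without Ik1ER, as MigR1 cells with 4OHT against ethanol. No member was called by limma, 1 had an unadjusted p under 0.05, and of all genes 0.0055% were called and 2.12% had such a p. The 9 differences ranged from -0.38 to 0.14. Ier3 had the largest, -0.38 (SE 0.16, unadjusted p = 0.0454, adjusted p = 1.00), and its 4OHT arrays (7.31 and 7.12) lay below its ethanol arrays (7.82 and 7.37) here too. Nfkbia differed by -0.12 (95% interval -0.31 to 0.08) and Nfkbie by -0.14 (-0.41 to 0.13). Their 4OHT arrays lay below their ethanol arrays as well. Nfkbia read 11.04 and 11.05 against 11.18 and 11.14, and Nfkbie 9.71 and 9.59 against 9.79 and 9.80. Those of Rela and Bcl3 lay above, so that arrays without overlap were not particular to Ik1ER cells. Tnfaip3 differed by -0.03 (-0.23 to 0.18).

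**Figure D3:**
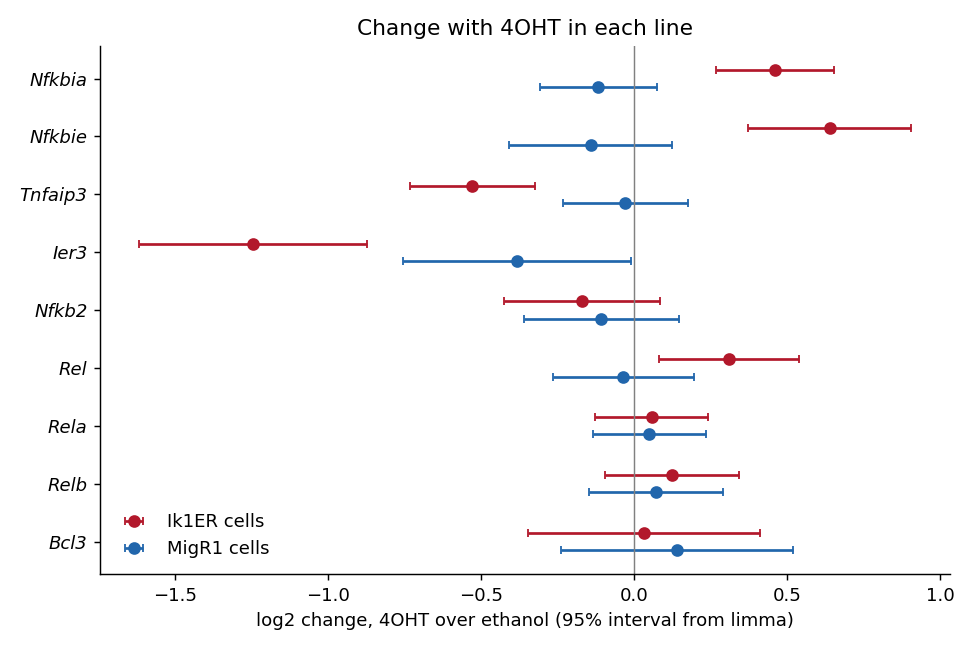
Log2 change with 4OHT over ethanol for each of the 9 genes in Ik1ER cells (red) and MigR1 cells (blue), with 95% intervals from limma. The intervals of Nfkbia and Nfkbie lay above 0 and those of Tnfaip3 and Ier3 below 0 in Ik1ER cells, and that of Rel, which was not called, also excluded 0, whereas in MigR1 cells the interval of Ier3 alone excluded 0.

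The difference between these 2 effects was tested directly, as the change in Ik1ER cells minus that in MigR1 cells. No member was called by limma, against 1.26% of all genes, although 5 of 9 members had an unadjusted p under 0.05, as did 11.1% of all genes. The difference was 0.78 for Nfkbie (SE 0.16, adjusted p = 0.0736), while for Nfkbia it was 0.58 (SE 0.12, adjusted p = 0.0711). For Tnfaip3 it was -0.50 (SE 0.12, adjusted p = 0.126), and for Ier3 it was -0.86 (SE 0.23, adjusted p = 0.148). Rel differed by 0.35 (SE 0.14, adjusted p = 0.413). The changes in Ik1ER cells did not pass this test of their difference from those in MigR1 cells, while some other settings called 1 or 2 members. Nfkbie was called without Ik1ER 4OHT replicate 2, where its difference was 0.93. The eBayes fit with trend and robust settings called both Nfkbia (adjusted p = 0.00847) and Nfkbie (adjusted p = 0.0208). With the filter on dim genes Nfkbia was called (limma, adjusted p = 0.0439). Of 17 other settings, however, 15 left Nfkbia and 14 left Nfkbie uncalled. Over these settings the difference ranged from 0.48 to 0.68 for Nfkbia and from 0.63 to 0.93 for Nfkbie.

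The lines were also compared with each other. With ethanol, before induction, limma called no member of 9 and 0% of all genes, while 1 member and 5.25% of all genes had an unadjusted p under 0.05. That member was Ier3, at -0.41 (SE 0.16, adjusted p = 0.920), with 7.10 and 7.27 in Ik1ER cells against 7.82 and 7.37 in MigR1 cells. Nfkbia differed by 0.10 (95% interval -0.09 to 0.29) and Nfkbie by -0.06 (-0.33 to 0.21). Tnfaip3 differed by 0.08 (-0.12 to 0.29).
With 4OHT, 4 of 9 members were called, 2 higher and 2 lower in Ik1ER cells, against 5.1% of all genes, 2.92% higher and 2.17% lower. These contrasts share arrays with the ones above and are not independent of them. Nfkbia was higher by 0.68 (SE 0.08, adjusted p = 0.00437), as was Nfkbie by 0.72 (SE 0.12, adjusted p = 0.0121). Ier3 was lower by 1.28 on the log2 scale (SE 0.16, 2.42-fold, adjusted p = 0.00502), and Tnfaip3 differed by -0.42 (SE 0.09, adjusted p = 0.0353). In limma's test over all probe sets, neither Tnfaip3 probe set was called (-0.42, adjusted p = 0.0734, and -0.19, 0.483). Of the 2 Nfkbie probe sets the dimmer was not called (0.58, adjusted p = 0.0627). Of the 5 Nfkbia probe sets only the dimmest was not (0.39, adjusted p = 0.263). The calls of Nfkbia and Ier3 held without any 1 array. That of Nfkbie was lost without MigR1 4OHT replicate 1 or 2 (adjusted p at most 0.105), and that of Tnfaip3 without any array except the Ik1ER ethanol ones (at most 0.200), and with arrays centred on their medians (0.0595). Nfkb2 differed by -0.28 (adjusted p = 0.240) by the probe set that stood for it. By its dimmer probe set it differed by -0.51 (SE 0.10), with an adjusted p of 0.0218 where that one stood for the gene and 0.0466 over all probe sets.

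The wider pathway was described by 7 lists of genes ordered by role, of which 105 genes were measured. In Ik1ER cells with 4OHT, 7 rose, 4 fell and 94 were not called, with a median change of 0.06, against 5.34% of all genes called. The lists too were written with earlier results of these data known, so that their counts do not test them as sets. The counts per list that follow are small, and several shares lie near that of all genes. None of 11 genes of the IKK complex and its kinases was called, and the 2 of smallest p, Tab1 and Ikbke, differed by -0.27 and 0.26 (limma, adjusted p = 0.0681 and 0.152). Of 9 IkB relatives and processing genes 1 fell and none rose. It was Ikbip, whose product binds IKK beta, at -0.31 (SE 0.07, adjusted p = 0.0427), a call lost without any 1 of the 8 arrays. Nfkbiz, an atypical nuclear IkB, differed by 0.20 (adjusted p = 0.284).

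Of 16 adaptors and ubiquitin ligases 1 rose and none fell. It was Prkcq, which encodes protein kinase C theta, the kinase that links the T cell receptor to the IKK complex. Prkcq read 9.65 and 9.84 in Ik1ER cells with 4OHT and 8.69 and 8.66 with ethanol, against 8.70 and 8.58 in MigR1 cells with 4OHT and 8.76 and 8.69 with ethanol. The arrays of Ik1ER cells with 4OHT lay above all 6 others. It rose by 1.07 (SE 0.09, limma, adjusted p = 0.000784). Its difference between the effects of the lines was called too (1.15, SE 0.13, adjusted p = 0.00780). Both calls held without any 1 array, though the difference did not without both Ik1ER replicate 2 arrays (adjusted p = 0.0547). Birc3, an inhibitor of apoptosis protein and NF-kB target, differed by 0.37 (adjusted p = 0.106).

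Of 14 deubiquitinases and other brakes 3 rose, 1 fell and 10 were not called. Pdlim2, whose product directs nuclear RelA to degradation, read 6.52 and 6.79 in Ik1ER cells with 4OHT and 5.76 and 5.49 with ethanol, and rose by 1.03 (SE 0.13, limma, adjusted p = 0.00428). Tnip1 and Tnip2 encode binding partners of the Tnfaip3 product. Tnip1 read 9.44 and 9.50 with 4OHT and 9.03 and 9.09 with ethanol and rose by 0.41 (SE 0.08, adjusted p = 0.0207). Tnip2 read 4.95 and 5.20 with 4OHT and 5.79 and 5.76 with ethanol and fell by 0.70 (SE 0.09, adjusted p = 0.00522). Its 4OHT arrays lay below the highest control mean, so that the size of this fall and of the difference between the lines is uncertain. The difference of Tnip2 between the effects of the lines was also called (-0.74, SE 0.13, adjusted p = 0.0420). Nlrc3, a negative regulator of Toll-like receptor signalling, rose by 0.67 (SE 0.12, adjusted p = 0.0198). Another Nlrc3 probe set above the highest control mean changed by 0.28 and was not called over all probe sets. The calls of Pdlim2 and Tnip2 in Ik1ER cells held without any 1 array. Those of Tnip1 and Nlrc3 did not (adjusted p at most 0.121 and 0.112), and the difference of Tnip2 lost its call without any 1 array other than Ik1ER 4OHT replicate 2 (at most 0.178). Leaving out both Ik1ER replicate 2 arrays left 1 array in each Ik1ER group. There Tnip2 kept its call in Ik1ER cells, and Pdlim2, Tnip1 and Nlrc3 lost theirs. The difference of Tnip2 between the effects of the lines lost its call there too.

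**Figure D4:**
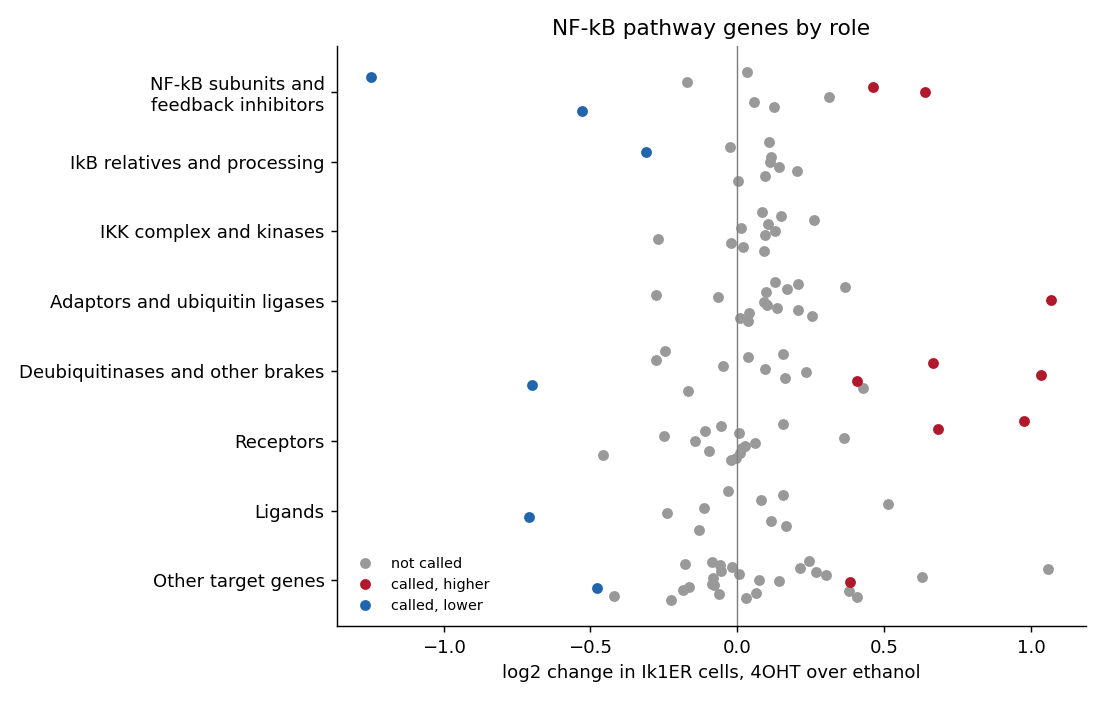
Log2 change in Ik1ER cells with 4OHT over ethanol for the 9 members (top row) and the 105 measured genes of 7 pathway lists, 1 point per gene, in red where limma called it higher, blue where lower and grey where not called. The member Ier3 had the deepest fall and the pathway gene Prkcq the largest rise, and none of the IKK complex and kinases was called.

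Of 17 receptors that can activate NF-kB, 2 rose and none fell. The costimulatory receptor gene Cd27 rose by 0.98 (SE 0.18, limma, adjusted p = 0.0212), as did the death receptor gene Fas by 0.68 (SE 0.10, adjusted p = 0.00870). Fas had means of 5.17 with 4OHT and 4.49 with ethanol in Ik1ER cells. Both lay below the highest control mean, so that the size of this rise is uncertain. Of 10 ligands 1 fell and none rose. Tnfsf11, which encodes RANKL, read 6.21 and 6.33 in Ik1ER cells with 4OHT and 6.76 and 7.21 with ethanol and fell by 0.71 (SE 0.15, adjusted p = 0.0308). Ltb, which encodes lymphotoxin beta, differed by 0.51 (adjusted p = 0.0851).
Of 28 other genes known as NF-kB targets, 1 rose, 1 fell and 26 were not called, with a median of -0.0071. The rise was that of the transcription factor gene Irf1, by 0.38 (SE 0.07, adjusted p = 0.0217), and the fall that of Myc (-0.48, SE 0.08, adjusted p = 0.0124). Each of the 5 genes called in these 3 lists lost its call without at least 1 array, with an adjusted p of at most 0.131 for Cd27, 0.0544 for Fas, 0.118 for Tnfsf11, 0.127 for Irf1 and 0.0823 for Myc. No pathway gene was called for 4OHT in MigR1 cells, where 5 of 105 had an unadjusted p under 0.05, against 0.0055% of all genes called and 2.12% with such a p.

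Markers of T cells moved with the same groups, 8 of 13 being called for 4OHT in Ik1ER cells, 3 higher and 5 lower. Of all genes 5.34% were called there, 2.84% higher and 2.51% lower, but these include dim genes. The dimmest of the 13 markers had a mean of 7.21. Cd8a rose by 1.84 (limma, adjusted p = 0.0160), Cd8b1 by 1.56 (0.0140) and Cd4 by 0.72 (0.0255), which encode the coreceptors of the T cell receptor. The changes of the CD3 genes were -0.69 for Cd3g (0.00522), -0.49 for Cd3d (0.0419) and -0.43 for Cd3e (0.0151). Those of the immature thymocyte genes were -0.61 for Ptcra (0.0409) and -0.52 for Dntt (0.0104). No marker of B, stromal, erythroid or natural killer cells was called. Myeloid markers moved with the same groups as well. The 8 markers averaged 4.91 to 5.03 in Ik1ER cells with 4OHT and 5.09 to 5.18 with ethanol, near the control level. Cd14, a receptor for bacterial lipopolysaccharide, read 5.60 and 5.70 in Ik1ER cells with 4OHT and 6.95 and 6.88 with ethanol, a change of -1.26 (limma, adjusted p = 0.000557). Lyz2 changed by -0.60 (limma, adjusted p = 0.0222) and Itgam by 0.54 (adjusted p = 0.0206), and the other 5 were not called. Itgam read at most 5.01 on any array, and Lyz2 read 4.82 and 5.15 in Ik1ER cells with 4OHT. These values lay below the highest control mean, so that the sizes of both changes are uncertain. The part of the marker changes in the results for the NF-kB genes was not tested.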

How the data were processed

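The deposited table holds log2 expression values, 1 column per array, computed by the authors with RMA, as named in the submitters' processing notes. No version of RMA, definition of the probe sets or genome build was found in those notes or in the labels. RMA brings arrays to a similar distribution, so that a global shift in RNA content cannot be seen and dim genes are compressed. Gene names came from the platform annotation. Probe sets with 1 symbol entered the tests, 34945 of 45101, giving 18193 genes. Each gene was represented by its brightest probe set on average, passing over those of the _x_at kind unless a gene had nothing else. For the members the brightest one was taken whatever its kind.

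A mean per group was estimated from the 8 arrays by lmFit and eBayes of limma 3.58.1 in R 4.3.3 (4 residual degrees of freedom). P-values were adjusted by Benjamini and Hochberg over all genes, and over 45037 probe sets where each was tested. A gene is termed called below an adjusted p of 0.05. Errors are standard errors from limma. In simulated data for 4OHT in Ik1ER cells (18193 genes), values were independent and normal, with limma's moderated spread of each gene. There 73% of 100 changes of 0.5 and 99% of 100 changes of 1 were recovered, and 13 of 185 calls (7.03%) were false. The simulation held no deviations shared between arrays, so that its rates may not hold for the measured arrays.

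The members and lists were chosen with earlier results of these data known. Pathway genes are named where called for 4OHT in Ik1ER cells or for the difference of effects, with the next by p where a list had fewer than 2. Alternatives were the replicate block, a filter on dim genes, trend and robust moderation, repeated quantile normalization, median centring, means over probe sets, only the compared groups, a minimum change of 1, and leaving out arrays. Promoter windows are RefSeq sequence of GRCm38.p6, unrelated to the array's build.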

Additional observations from a re-analysis of the deposited data

How the results depend on the processing

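The 45 values of 9 members in 5 comparisons were recomputed under 18 other settings, 791 values in all. Of these, 719 kept their direction and side of the threshold, 29 lost a call, 8 gained one, and 35 called in neither changed sign, all between -0.25 and 0.18. No called value changed sign. The cause of the changes below was not tested, except that a minimum change of 1 can only lower a count. For 4OHT in Ik1ER cells, the 4 members called became 1 with only the compared groups, 1 with a minimum log2 change of 1, 2 without both Ik1ER replicate 2 arrays, and 1 to 4 with each array left out. The genes called there, 972, became 412, 153 and 388 under the same 3 settings and 439 to 825 with each array left out. For the difference between the effects, 0 members became 1 with the replicate block (Nfkbie, 0.78, adjusted p = 0.0345), 1 with the filter on dim genes (Nfkbia), 2 with trend and robust settings, and 0 to 1 with each array left out. Genes called there, 229, became 439 with trend and robust settings, 112 with the minimum change, 100 without both Ik1ER replicate 2 arrays, and 51 to 269 with each array left out. For Ik1ER against MigR1 with 4OHT, 4 members became 1 with the minimum change, 2 to 4 with each array left out, and 5 with means over probe sets (Nfkb2, -0.39, adjusted p = 0.0246) or without _x_at probe sets. Genes called there, 927, became 429 with only the compared groups, 141 with the minimum change, 592 without both Ik1ER replicate 2 arrays and 242 to 810 with each array left out. In the lines with ethanol, 0 genes became 1 with means over probe sets. For 4OHT in MigR1 cells, 1 gene became 0 with the replicate block, the filter on dim genes, repeated quantile normalization, means over probe sets, only the compared groups, or without both Ik1ER replicate 2 arrays, and 0 to 1 with each array left out. Leaving _x_at probe sets out for members follows the rule used for all other genes, though this alternative was chosen after seeing the data. It added a call of Nfkb2 for Ik1ER against MigR1 with 4OHT (-0.51, adjusted p = 0.0218) and for 4OHT in Ik1ER cells (-0.45, adjusted p = 0.0314). Samples of the same replicate number deviated together with correlations of -0.02 to 0.43 between groups, highest for the 2 Ik1ER groups. Since 2 of the 6 were not above 0.1, the numbers were not taken as pairs, and shared handling of same-numbered Ik1ER arrays was not tested. The replicate block gave 1150 genes for 4OHT in Ik1ER cells and changed no call of a member besides Nfkbie. A group left with 1 array is assumed to vary like the others.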

Other observations

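Pathway genes outside the members also differed between the lines. In Ik1ER against MigR1 cells with 4OHT, 12 of 105 were called by limma, 9 higher and 3 lower, while 5.1% of all genes were called. Cd69, Birc3, Traf3ip3 and Tab1 were called there but not for 4OHT within Ik1ER cells, and they are named after their values were seen. Cd69, an activation marker of T cells and thymocytes, read 5.30 and 6.30 in Ik1ER cells with 4OHT against 4.21 and 4.39 in MigR1 cells with 4OHT, a difference of 1.50 (SE 0.31, adjusted p = 0.0336). The MigR1 arrays of Cd69 lay below the highest control mean, so that the size of this difference is uncertain. Birc3 read 8.19 and 8.28 against 7.65 and 7.89 in MigR1 cells, a difference of 0.47 (SE 0.11, adjusted p = 0.0466). Traf3ip3, which encodes a TRAF3-interacting protein of lymphocytes, differed by 0.50 (SE 0.10, adjusted p = 0.0282). Tab1, a partner of the kinase TAK1, differed by -0.38 (SE 0.07, adjusted p = 0.0207). Whether these line differences differ from the changes within Ik1ER cells was not tested.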
